A study of Mus musculus with 12 samples.

Results

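The NF-kB transcription factor subunits, their inhibitors and a set of their chemokine and adhesion targets were followed in the mouse pancreas. The set held 10 genes, namely the subunit genes Rela, Relb, Nfkb1 and Nfkb2, the inhibitor genes Nfkbia, Nfkbie and Tnfaip3, the chemokine genes Cxcl1 and Ccl2, and the adhesion gene Icam1. Members were all probe sets (groups of oligonucleotides on the array that read one transcript) whose platform annotation gave a single gene symbol from that set. There were 13 such probe sets among the 20240 with a single symbol, and they covered 9 of the 10 genes, out of 12336 genes so annotated. No probe set is reported for Nfkb1, because none carried its symbol alone in the annotation used here. Nfkbia had 4 probe sets, Nfkb2 had 2 and each other gene had 1. Of the 13, 11 passed the filter on dim probe sets and entered the tests, and the only probe set of Nfkbie and the dimmer probe set of Nfkb2 did not.

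The 4 groups were Mist1KO mice after caerulein, Mist1KO mice after saline, C57BL6 wild type mice after caerulein and C57BL6 wild type mice after saline, with 3 pancreata each and 1 array per pancreas. All were males aged 2 to 4 months, were injected hourly for 4 hours and were killed at the end of that time, and total RNA was taken from the pancreas. Mist1KO mice lack Mist1, the product of Bhlha15, a transcription factor of acinar cells, which make the digestive enzymes. The labels name neither the strain background nor the allele of the Mist1KO mice, nor a caerulein dose, so a strain difference and the loss of Mist1 cannot be told apart. Caerulein is an analogue of the gut hormone cholecystokinin, and repeated high doses of it cause acute pancreatitis in rodents.

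NF-kB proteins work as dimers. In resting cells, inhibitor proteins of the IkB family, among them the products of Nfkbia and Nfkbie, hold them in the cytoplasm. Upstream receptors activate a kinase complex that marks the inhibitor for destruction, the dimer enters the nucleus, and it switches on target genes, Nfkbia and Tnfaip3 among them, which then close the loop. In acute pancreatitis the pathway is known to be active early in acinar cells, where its targets include chemokines that draw leukocytes and adhesion molecules that let them leave the blood. The array reads mRNA levels and not protein, so inhibitor destruction and the movement of dimers to the nucleus were not measured.

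The check of the genotype labels was met on all 12 arrays, and the injection labels had no such check. The brightest probe set of Bhlha15 lay at 38.3 to 79.4 in Mist1KO caerulein, at 89.9 to 106.8 in Mist1KO saline, at 729.5 to 838.5 in wild type caerulein and at 1601 to 1624.3 in wild type saline. The deposited values were scaled signals, in arbitrary units, with array medians of 70.6 to 90.15, and no 2 arrays were identical. Measures of array quality moved with the groups. The geometric mean of the spiked-in control probe sets averaged 446 in Mist1KO caerulein, 914 in Mist1KO saline, 1073 in wild type caerulein and 1263 in wild type saline. The ratio of 3′ to 5′ signal for Actb averaged 1.12, 1.82, 1.35 and 1.53 in the same order, and for Gapdh it averaged 0.983, 0.963, 1.11 and 1.13. The part of these differences in the results below was not tested.

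The bases before an annotated transcript start of 3 members are shown because the members' mRNAs took different courses across the groups. Of the 4 Nfkbia probe sets, only the brightest passed the test for a difference between genotypes in the response to caerulein. Rela rose after caerulein in both genotypes, and Cxcl1 did not pass the test in any comparison. Each line gives the 250 bases before an annotated transcript start, 5′ to 3′ in the direction of the gene, from RefSeq on GRCm38.p6. Capitals mark matches to the NF-kB consensus site, searched by that consensus on both strands, and adjacent matches that overlap are merged in the capitals. The Nfkbia stretch is chr12:55492648-55492897 on the minus strand. The Rela stretch is chr19:5637291-5637540 on the plus strand, and its last part lies inside the gene's annotated span, which begins at an earlier start. The Cxcl1 stretch is chr5:90890995-90891244 on the plus strand.
Nfkbia: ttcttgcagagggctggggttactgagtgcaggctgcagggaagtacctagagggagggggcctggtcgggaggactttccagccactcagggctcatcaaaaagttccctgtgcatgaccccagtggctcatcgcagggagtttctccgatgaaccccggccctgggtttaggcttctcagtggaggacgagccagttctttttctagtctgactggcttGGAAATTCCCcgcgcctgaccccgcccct
Rela: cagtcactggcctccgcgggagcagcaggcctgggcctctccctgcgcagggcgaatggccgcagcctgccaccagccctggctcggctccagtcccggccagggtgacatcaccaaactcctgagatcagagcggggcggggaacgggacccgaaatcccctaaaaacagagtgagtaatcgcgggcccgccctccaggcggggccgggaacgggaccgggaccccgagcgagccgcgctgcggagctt
Cxcl1: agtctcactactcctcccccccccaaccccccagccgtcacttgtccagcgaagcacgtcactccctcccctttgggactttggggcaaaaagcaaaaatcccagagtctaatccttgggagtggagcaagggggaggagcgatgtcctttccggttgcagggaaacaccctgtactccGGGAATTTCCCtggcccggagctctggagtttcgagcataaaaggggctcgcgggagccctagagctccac

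Nfkbia held 1 match, which began 29 bases before the start. Cxcl1 held 2 overlapping matches, which began 71 and 70 bases before its start. Rela held none in this window. Of the 10 member gene set, 7 genes had an entry and 5 of these had a match at 1 or more of their starts, which is 7 of 10 starts, and Nfkb2, Nfkbie and Tnfaip3 were the other genes with a match. Across all 32851 starts in the table, 3.9% held a match. The members were picked as NF-kB genes and targets, so setting these shares side by side is not a test. Several of the member starts belong to Nfkb2, and some of their windows overlap. Ccl2, Nfkb1 and Relb had no entry. A match describes letters in this window and is not evidence that a factor binds there.

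The 11 tested probe sets were compared between the groups with limma on log2(signal + 18.7), and p-values were adjusted over all 15716 probe sets tested. A change is the log2 difference ± its standard error (SE), with 3 arrays in each group, and rose or fell means an adjusted p under 0.05. Folds are on that offset scale, so for dim genes they are smaller than the ratio of the signals. In whole tissue, fewer cells of a type and less RNA per cell cannot be told apart. The comparisons share groups, so they are not independent of each other.

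With caerulein, Rela rose in both genotypes, while 3 of the 4 Nfkbia probe sets fell in wild type and 1 of the 4 rose in Mist1KO. For Mist1KO caerulein against Mist1KO saline, 3 of the 11 member probe sets rose (Rela, Relb and 1 of Nfkbia) and 0 fell, against 24% of all probe sets tested that passed in either direction (10.5% rose and 13.4% fell). For wild type caerulein against wild type saline, 1 rose (Rela) and 4 fell (3 of Nfkbia, and Ccl2), against 18.9% of all (9.19% rose and 9.74% fell). For Mist1KO caerulein against wild type caerulein, 3 were higher, all of Nfkbia, and 0 were lower, against 20.2% of all (10% higher and 10.2% lower). Without caerulein, for Mist1KO saline against wild type saline, 0 of 11 passed with limma, against 12.6% of all (6.84% higher and 5.74% lower), and 2 had an unadjusted p under 0.05, namely Rela and the Nfkbia probe set 1420089_at. Counted in either direction, the share of members called thus lay near the background between genotypes after caerulein and in the Mist1KO caerulein comparison. It lay above the background in wild type and below it after saline. Of the 5 called in wild type, 3 read a single gene.

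The difference between genotypes in the response to caerulein was tested as an interaction, the change in Mist1KO minus the change in wild type. It passed for 1 of 11 member probe sets, 1420088_at of Nfkbia, against 3.3% of all probe sets (1.51% with a positive and 1.78% with a negative difference). The median change over the 11 was 0.34 for Mist1KO caerulein against saline, -0.49 for wild type caerulein against saline, 0.64 between the genotypes after caerulein, -0.19 between them after saline, and 0.83 for the interaction. Over all probe sets tested those medians were -0.13, -0.14, -0.05, -0.05 and 0. Of the 11, the 3 arrays of one group lay wholly beyond those of the other for 3 in the Mist1KO caerulein comparison (43.4% of all probe sets), for 7 in the wild type comparison (33.8%), for 6 after caerulein between genotypes (38.1%) and for 4 after saline (33.1%).

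**Figure D1:**
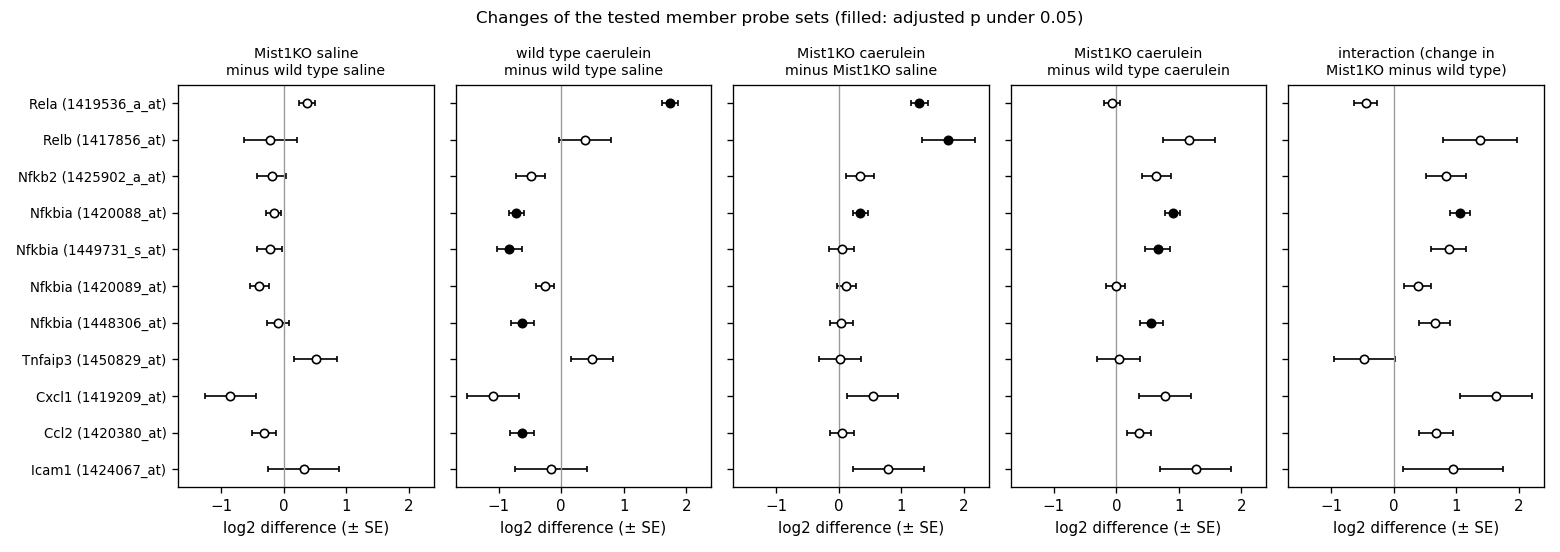
Log2 change ± SE of each tested member probe set (rows) in each comparison of groups and in the interaction, with filled points for an adjusted p under 0.05. Rela lies far to the right in both caerulein comparisons (1.29 in Mist1KO and 1.74 in wild type), and the brightest Nfkbia probe set lies right of 0 in Mist1KO (0.34) and left of it in wild type (-0.72).

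Rela encodes the main transactivating subunit of the classical NF-kB dimer. Its gene spans chromosome 19, 5637442 to 5648134, on GRCm38.p6. Its probe set 1419536_a_at read 1660.4, 1797.7 and 1514.1 in Mist1KO caerulein, against 748.2, 616 and 635.4 in Mist1KO saline. It read 1877, 1453.1 and 1923.2 in wild type caerulein, against 507.8, 474.7 and 543.9 in wild type saline. All 6 caerulein arrays were above all 6 saline arrays. The rise was 2.45-fold in Mist1KO (1.29 ± 0.13, limma adjusted p = 8.69e-06) and 3.33-fold in wild type (1.74 ± 0.13, adjusted p = 1.08e-06).

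After caerulein the genotypes did not differ beyond their spread in Rela, with means of 1657 ± 142 in Mist1KO and 1751 ± 259 in wild type (SD, n = 3 each) and a log2 difference of -0.07 with a confidence interval at 95% of -0.35 to 0.21. After saline the 3 Mist1KO arrays lay above the 3 wild type arrays, at 667 ± 71.4 against 509 ± 34.6 (SD, n = 3 each). That difference of 0.37 ± 0.13 missed the threshold (limma adjusted p = 0.0761). The smaller rise in Mist1KO missed it as well in the interaction (-0.45 ± 0.18, limma adjusted p = 0.239). With each array centred on its median, the saline difference was 0.47 and passed (limma adjusted p = 0.0449).

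Relb encodes the subunit that acts mainly in the alternative NF-kB pathway, and its gene lies on chromosome 7 at 19606217 to 19629438. Its probe set 1417856_at was dim. It read 120, 111.1 and 109.3 in Mist1KO caerulein, against 56.6, 5.9 and 13.8 in Mist1KO saline. The wild type arrays read 43.2, 18.2 and 72.4 after caerulein, against 20.4, 19 and 44.9 after saline. The 3 Mist1KO caerulein arrays were above the other 9 arrays. The rise was 3.37-fold in Mist1KO (1.75 ± 0.42, limma adjusted p = 0.00734). Its size depended on the offset, at 2.66 with an offset of 1 and 1.03 with an offset of 64, and both passed.

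In wild type the Relb arrays of the groups overlapped and the change missed the threshold (0.38 ± 0.42, limma adjusted p = 0.556). So did the difference between Mist1KO caerulein and wild type caerulein (1.16 ± 0.42, limma adjusted p = 0.0672), which passed without wild type caerulein replicate 3 (1.46, limma adjusted p = 0.042), without Mist1KO saline replicate 1 (1.16, limma adjusted p = 0.0351), with the compared groups alone (limma adjusted p = 0.0311) and with an offset of 64 (0.74, limma adjusted p = 0.0295). The interaction was 1.37 ± 0.59 and missed (limma adjusted p = 0.258), so the rise of Relb in Mist1KO was not shown to differ from the change in wild type.

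Nfkb2 encodes the precursor that is processed into the partner of the Relb product. Its brighter probe set 1425902_a_at read 108.7, 115.4 and 65.9 in Mist1KO caerulein, against 60.4, 75.7 and 76.1 in Mist1KO saline, and those groups overlapped. It read 64.1, 51.2 and 47.2 in wild type caerulein, against 66.5, 103.6 and 82.8 in wild type saline, which did not overlap. Its changes were 0.34 ± 0.23 in Mist1KO (limma adjusted p = 0.319) and -0.49 ± 0.23 in wild type (limma adjusted p = 0.158), and neither passed. After caerulein the Mist1KO arrays were above the wild type arrays (means of 96.7 ± 26.9 and 54.2 ± 8.83, SD, n = 3 each), and that difference missed the threshold (0.64 ± 0.23, limma adjusted p = 0.0654). It passed without Mist1KO caerulein replicate 3 (0.85, limma adjusted p = 0.0234), with median centring (0.73, limma adjusted p = 0.0365), with quantile normalization (0.70, limma adjusted p = 0.0441) and with no intensity trend (0.64, limma adjusted p = 0.0482). The second probe set of Nfkb2, 1429128_x_at, was below the filter at 6.4 to 50.5 over the 12 arrays, and its suffix marks probes that may bind other transcripts.

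**Figure D2:**
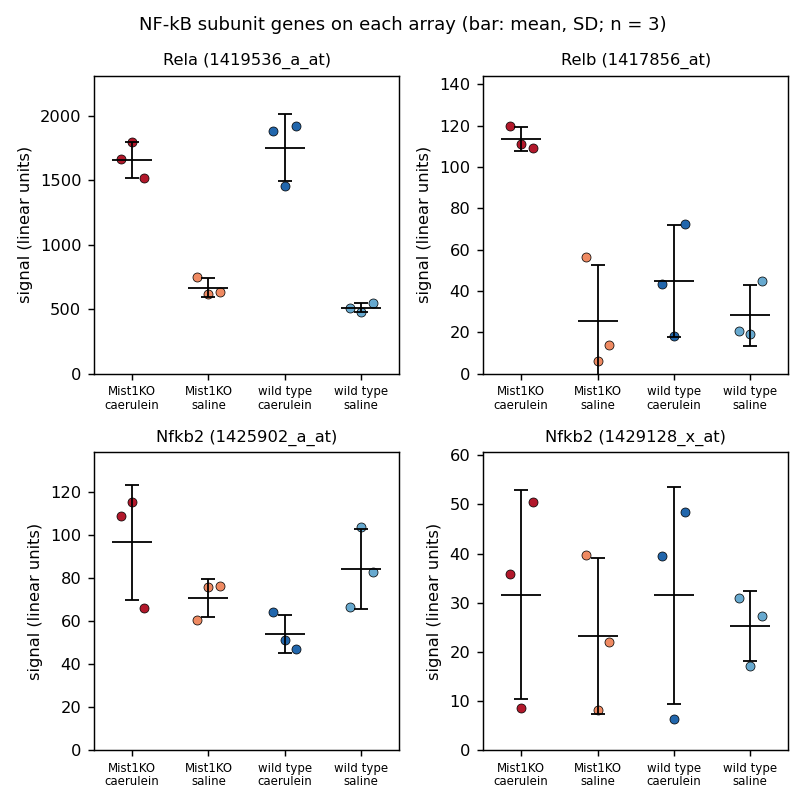
Signal of each array in linear units, for the probe sets of Rela, Relb and Nfkb2 (both probe sets), by group. Each point is an array, the long bar is the group mean and the error bar the SD, cut off at 0. The caerulein arrays of Rela (1453.1 to 1923.2) are all above its saline arrays (474.7 to 748.2), and the 3 Mist1KO caerulein arrays of Relb (109.3 to 120) are above the other 9.

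Nfkbia encodes IkB-alpha, the inhibitor that NF-kB itself induces. Its gene lies on chromosome 12 at 55489409 to 55492647, and it was read by 4 probe sets. The brightest, 1420088_at, read 2068, 2048.9 and 2105.3 in Mist1KO caerulein, against 1769.6, 1548.8 and 1604.4 in Mist1KO saline. It read 1255.9, 1154.5 and 926.7 in wild type caerulein, against 1859.5, 1785.8 and 1858.5 in wild type saline. The wild type caerulein arrays were the lowest 3 of the 12 and the Mist1KO caerulein arrays were the highest 3.

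This probe set fell by 0.72 ± 0.12 on the log2 scale in wild type with caerulein, which is 1.65-fold lower (limma adjusted p = 0.000613). In Mist1KO it rose 1.26-fold (0.34 ± 0.12, limma adjusted p = 0.049), close to the threshold. That rise did not pass under 14 of the 21 alternatives tried, where its adjusted p reached 0.152 (limma) while its size stayed between 0.27 and 0.46. The arrays whose removal ended it were all 3 of wild type saline (0.34 each), wild type caerulein replicate 2 (0.34), Mist1KO saline replicates 1, 2 and 3 (0.39, 0.30 and 0.32) and Mist1KO caerulein replicates 1, 2 and 3 (0.34, 0.35 and 0.33). After caerulein the signal was 1.86-fold higher in Mist1KO than in wild type (0.90 ± 0.12, limma adjusted p = 0.000137). After saline the 3 Mist1KO arrays lay below the 3 wild type arrays, and that difference missed the threshold (-0.16 ± 0.12, limma adjusted p = 0.389, with a confidence interval of -0.41 to 0.09). The interaction was 1.06 ± 0.16 (limma adjusted p = 0.0042), with a confidence interval of 0.71 to 1.41. The wild type fall, the caerulein difference between genotypes and the interaction passed under every alternative tried.

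**Figure D3:**
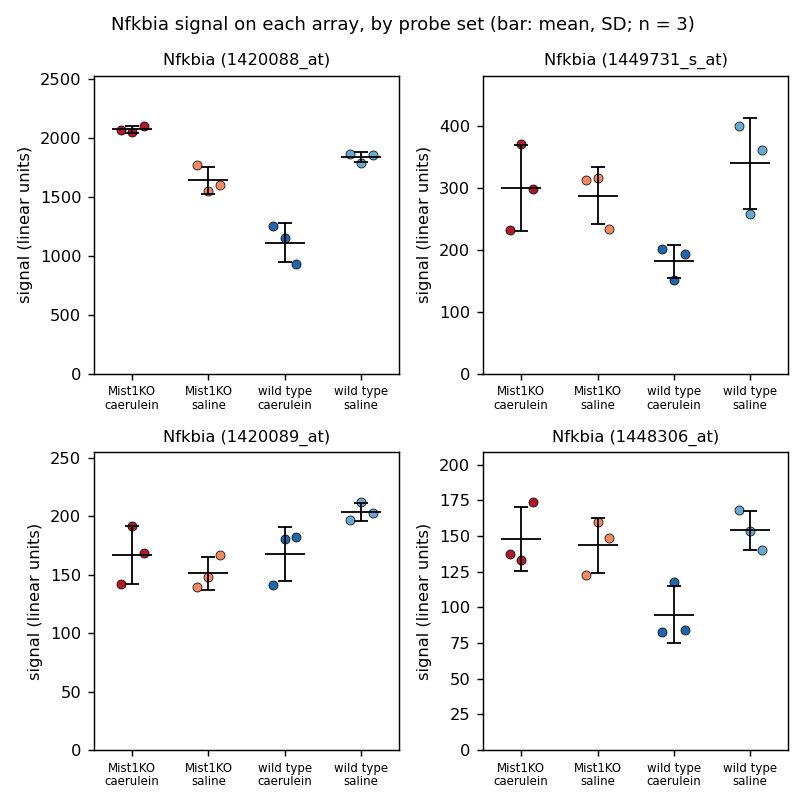
Signal of each array for the 4 Nfkbia probe sets, in linear units, by group, with the mean as a long bar, the SD as an error bar and a separate vertical axis for each probe set. The wild type caerulein arrays of 1420088_at (926.7 to 1255.9) are below the other 9 arrays, and for 1420089_at the caerulein arrays of the genotypes overlap (141.9 to 191.5 in Mist1KO and 141.4 to 182.6 in wild type).

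Of the other 3 probe sets, 2 moved the same way in wild type. The probe set 1449731_s_at, whose suffix marks probes shared between transcripts, read 232.2, 370.8 and 297.8 in Mist1KO caerulein, against 312.1, 315.6 and 233.7 in Mist1KO saline. It read 200.7, 150.4 and 192.4 in wild type caerulein, against 400.7, 258.3 and 360.9 in wild type saline. Its 3 wild type caerulein arrays were the lowest of the 12. It fell 1.78-fold in wild type (-0.83 ± 0.20, limma adjusted p = 0.0102), and its change in Mist1KO was 0.05 ± 0.20 (limma adjusted p = 0.892).

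The probe set 1448306_at read 137.1, 133.2 and 173.9 in Mist1KO caerulein, against 122.5, 160 and 148.4 in Mist1KO saline. It read 82.5, 118.1 and 84 in wild type caerulein, against 168.1, 153.6 and 140.4 in wild type saline. The wild type caerulein arrays were again the lowest 3. It fell 1.53-fold in wild type (-0.62 ± 0.18, limma adjusted p = 0.026), while its change in Mist1KO was 0.04 ± 0.18 (limma adjusted p = 0.908). The wild type fall did not pass with quantile normalization (-0.52), with median centring (-0.49), with only the groups compared (-0.62), or when wild type saline replicate 1 (-0.56) or 2 (-0.62), or wild type caerulein replicate 1 (-0.54) or 3 (-0.55), was left out, with limma adjusted p up to 0.0883.

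Between genotypes after caerulein, 1449731_s_at was 1.58-fold higher in Mist1KO (0.66 ± 0.20, limma adjusted p = 0.0319) and 1448306_at was 1.47-fold higher (0.56 ± 0.18, limma adjusted p = 0.0385). The call on 1449731_s_at ended without wild type caerulein replicate 2 (0.54) or 3 (0.70), without Mist1KO caerulein replicate 2 (0.50) or 3 (0.65) and with no intensity trend (0.66). The call on 1448306_at ended without wild type caerulein replicate 1 (0.48) or 3 (0.49), without Mist1KO saline replicate 3 (0.56), without Mist1KO caerulein replicate 1 (0.61), 2 (0.62) or 3 (0.45), with no filter (0.56) and with only the groups compared (0.56). Neither passed in the interaction, at 0.88 ± 0.28 (limma adjusted p = 0.119) and 0.65 ± 0.25 (limma adjusted p = 0.197).

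The probe set 1420089_at did not pass in any comparison. It read 141.9, 191.5 and 168.5 in Mist1KO caerulein, against 139.5, 147.8 and 167.1 in Mist1KO saline. It read 141.4, 180.4 and 182.6 in wild type caerulein, against 196.8, 212.4 and 203.1 in wild type saline. Its wild type saline arrays were the highest 3 of the 12. Its changes were 0.12 ± 0.15 in Mist1KO with caerulein, -0.26 ± 0.15 in wild type with caerulein (confidence interval -0.59 to 0.07), -0.01 ± 0.15 between the genotypes after caerulein (-0.34 to 0.32) and -0.39 ± 0.15 between them after saline.

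Whether the Nfkbia probe sets changed by different amounts was tested on the log2 difference between 1420088_at and each other probe set within an array, with exact permutation tests over arrays, 6 in all. A single difference passed: 1420088_at minus 1420089_at was larger in Mist1KO than in wild type by 0.57, averaged over injections (two-sided exact permutation p = 0.005, the smallest that 400 arrangements allow, adjusted p = 0.03). The difference was 3.13 to 3.7 on the 6 Mist1KO arrays and 2.23 to 3.12 on the 6 wild type arrays. After caerulein it was 3.3 to 3.7 in Mist1KO and 2.23 to 2.99 in wild type. After saline it was 3.13 to 3.5 in Mist1KO and 2.97 to 3.12 in wild type. The same measure differed between caerulein and saline by 0.21 in Mist1KO and -0.46 in wild type, which averaged -0.12 and did not pass (exact permutation adjusted p = 0.51). An average over genotypes cannot show changes of opposite sign, and the difference between the genotypes in this change was not tested. The other 4 tests gave differences of 0.10 to 0.20 (exact permutation adjusted p = 0.51 each). That call was lost under 8 of 15 alternatives: with an offset of 64 (0.52, exact permutation adjusted p = 0.06), with quantile normalization (0.51, exact permutation adjusted p = 0.12) and when any 1 of the 3 wild type saline arrays (0.59, 0.55 and 0.57), replicate 1 of Mist1KO saline (0.52) or replicate 1 (0.52) or 3 (0.57) of Mist1KO caerulein was left out, which also leaves fewer arrangements. The sources used here name a RefSeq transcript for the Nfkbia probe set 1448306_at. They name none for 1420088_at, the brightest, nor for 1449731_s_at or 1420089_at. Which transcripts the probes of each Nfkbia probe set read was not tested.

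**Figure D4:**
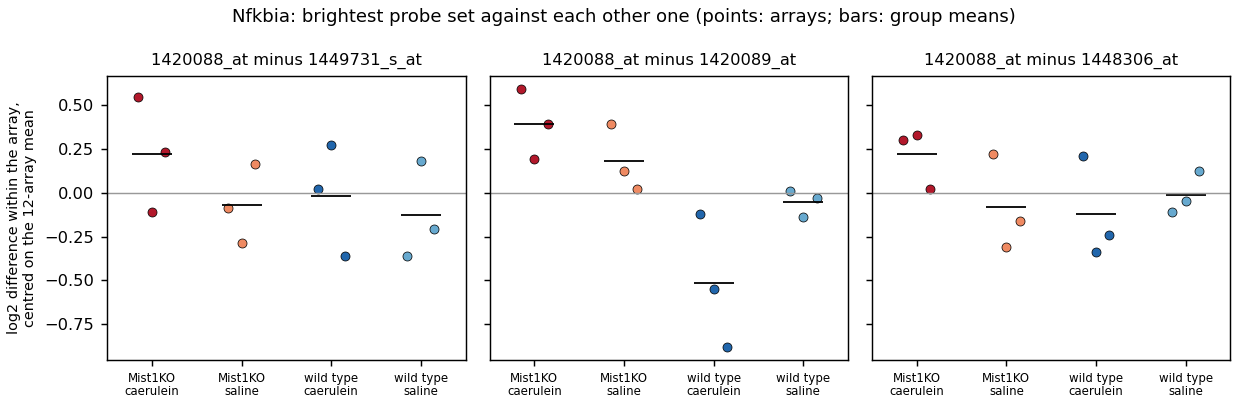
Log2 difference within each array between the brightest Nfkbia probe set and each of the other 3, centred on its mean over the 12 arrays, by group, with a point for each array and a bar for the group mean. For 1420089_at the 6 Mist1KO arrays (3.13 to 3.7 before centring) lie above the 6 wild type arrays (2.23 to 3.12), and for the other probe sets the genotypes overlap.

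Nfkbie encodes IkB-epsilon, a second inhibitor. Its probe set 1431843_a_at was below the filter, with 31.5, 42.3 and 27.6 in Mist1KO caerulein, 10.2, 20.1 and 44.3 in Mist1KO saline, 21.3, 28.9 and 54.9 in wild type caerulein, and 31.9, 103.9 and 30.4 in wild type saline. The 4 groups overlapped. In the fit with no filter on dim probe sets none of its changes passed (limma adjusted p = 0.31 to 0.995).

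Tnfaip3 encodes a ubiquitin-editing enzyme that shuts off signalling upstream of the inhibitors. Its probe set 1450829_at read 44.7, 71.4 and 73.9 in Mist1KO caerulein, against 47.5, 60.5 and 77.4 in Mist1KO saline. It read 54.7, 52.5 and 74.2 in wild type caerulein, against 70.9, 44.7 and 12 in wild type saline. The groups overlapped throughout. Its change was 0.02 ± 0.34 in Mist1KO (confidence interval -0.72 to 0.76) and 0.49 ± 0.34 in wild type (-0.25 to 1.23).

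Ccl2 encodes a chemokine that attracts monocytes. Its probe set 1420380_at read 100.4, 146.4 and 119 in Mist1KO caerulein, against 112.8, 146.5 and 92.6 in Mist1KO saline. It read 101.8, 81.7 and 86.3 in wild type caerulein, against 158.4, 134.9 and 154.1 in wild type saline. The wild type groups did not overlap, and the Mist1KO groups did. Ccl2 fell 1.55-fold in wild type with caerulein (-0.63 ± 0.19, limma adjusted p = 0.0321), and its change in Mist1KO was 0.05 ± 0.19 (limma adjusted p = 0.872). The difference between these changes missed the threshold (0.68 ± 0.27, limma adjusted p = 0.209). The wild type fall did not pass under 8 of 21 alternatives, among them the loss of replicate 1 (-0.59) or 3 (-0.61) of wild type saline or of replicate 2 (-0.57) or 3 (-0.61) of wild type caerulein, and median centring (-0.50), with limma adjusted p up to 0.0932.

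Cxcl1 encodes a chemokine that attracts neutrophils. Its probe set 1419209_at read 69.3, 62 and 100.7 in Mist1KO caerulein, against 51.4, 64.6 and 28.8 in Mist1KO saline. It read 84.1, 8.8 and 40.9 in wild type caerulein, against 146.5, 87.3 and 73.9 in wild type saline. The wild type caerulein arrays were spread widely and overlapped both the wild type saline and the Mist1KO caerulein arrays. After saline the Mist1KO arrays lay below the wild type arrays, and that difference missed the threshold (-0.85 ± 0.41, limma adjusted p = 0.191). The difference between genotypes after caerulein was 0.78 ± 0.41 and missed it as well (limma adjusted p = 0.206). The changes of Cxcl1 with caerulein were 0.54 ± 0.41 in Mist1KO (limma adjusted p = 0.383) and -1.09 ± 0.41 in wild type (limma adjusted p = 0.0796). The interaction, which takes in the saline difference, was 1.63 ± 0.58 (limma adjusted p = 0.16). Without wild type caerulein replicate 1, the wild type change (-1.54, limma adjusted p = 0.0146), the difference between genotypes after caerulein (1.23, limma adjusted p = 0.0423) and the interaction (2.08, limma adjusted p = 0.0451) passed.

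Icam1 encodes the endothelial and epithelial ligand of leukocyte integrins. Its probe set 1424067_at read 74.2, 113.4 and 76.5 in Mist1KO caerulein, against 61, 81.7 and 9.3 in Mist1KO saline. It read 36.6, 36.1 and 9 in wild type caerulein, against 108.7, 11.5 and 11.5 in wild type saline. After caerulein the Mist1KO arrays were all above the wild type arrays, and the saline groups were each spread over a wide range. That difference of 1.27 ± 0.57 missed the threshold (limma adjusted p = 0.134), and it passed with only the groups compared (limma adjusted p = 0.0255). Its changes with caerulein were 0.79 ± 0.57 in Mist1KO and -0.16 ± 0.57 in wild type, and neither passed (limma adjusted p = 0.351 and 0.876).

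**Figure D5:**
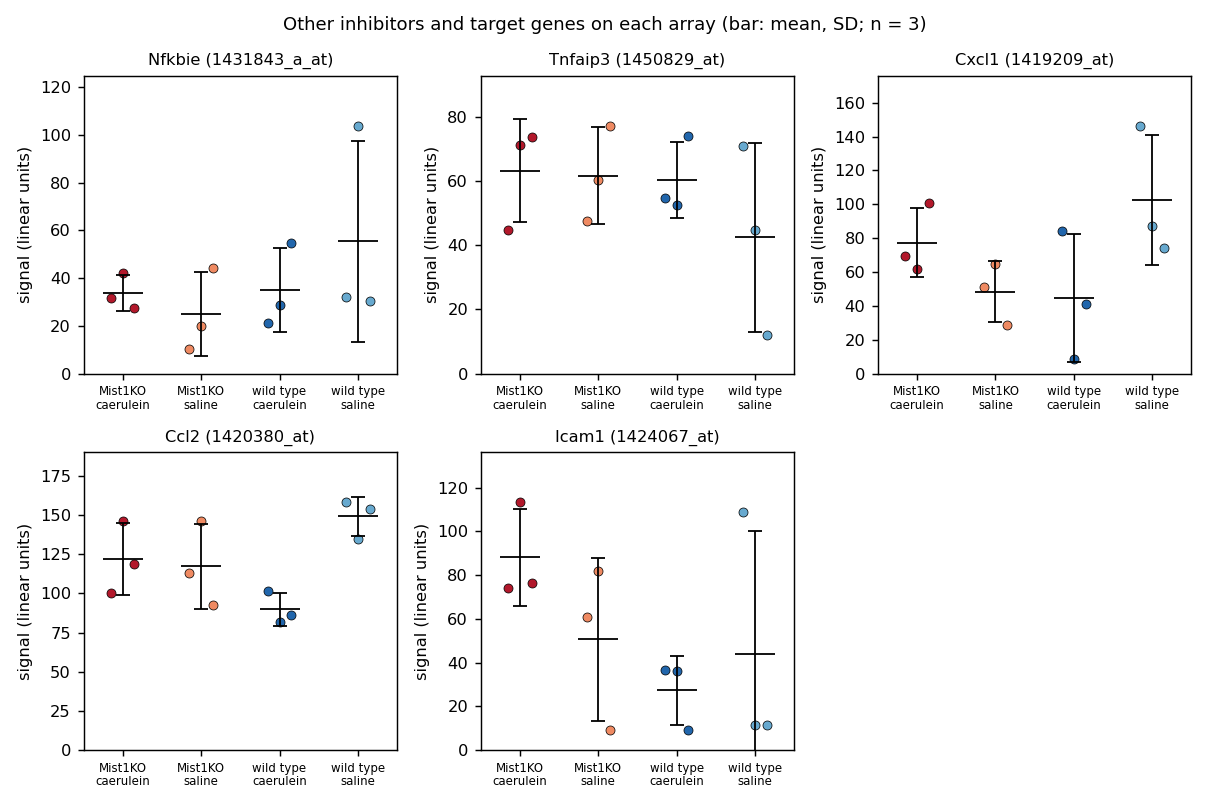
Signal of each array in linear units, for Nfkbie, Tnfaip3, Cxcl1, Ccl2 and Icam1, by group, with the mean as a long bar and the SD as an error bar, cut off at 0. The wild type groups of Ccl2 do not overlap (81.7 to 101.8 after caerulein and 134.9 to 158.4 after saline), and the caerulein groups of Icam1 do not overlap between genotypes (74.2 to 113.4 in Mist1KO and 9 to 36.6 in wild type).

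Summed signals of marker genes of the cells that these chemokines attract were read beside them. The 9 annotated neutrophil markers of 10 summed to 631 to 754 in Mist1KO caerulein, 538 to 808 in Mist1KO saline, 704 to 887 in wild type caerulein and 870 to 1181 in wild type saline. The 10 macrophage and monocyte markers summed to 1515 to 1592, 1361 to 2197, 1335 to 1619 and 1606 to 2264 in the same order, and the 8 lymphocyte markers of 10 to 519 to 601, 554 to 818, 482 to 547 and 538 to 670. No marker of these lists was at 0. With caerulein in wild type, 1 of 7 tested neutrophil markers (Ngp), 2 of 10 macrophage markers (Adgre1 and Csf1r) and 1 of 5 lymphocyte markers (Cd79a) fell and 0 rose. The share of all probe sets that fell there was 9.74%. In Mist1KO 0 of these 22 passed with limma, 1 of them with an unadjusted p under 0.05, against 24% of all that passed. The part of these cells in the fall of Ccl2 was not tested.

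Marker signals of the tissue's own cell types also differed between the groups. The 10 annotated acinar markers of 12 summed to 63208 to 97784 in Mist1KO caerulein, 109348 to 126648 in Mist1KO saline, 123636 to 170069 in wild type caerulein and 152119 to 188733 in wild type saline. With caerulein, 9 of the 10 fell in Mist1KO (13.4% of all fell) and 2 of 10 (Ctrc and Rbpjl) in wild type (9.74% of all). After caerulein, 8 of 10 were lower in Mist1KO than in wild type (10.2% of all). The 6 annotated duct markers of 8 summed to 3632 to 3901, 1683 to 2016, 2358 to 2847 and 2280 to 2646 in the same group order. Krt19 and Epcam, 2 of the 4 tested duct markers, rose with caerulein in both genotypes. The background of rises was 10.5% in Mist1KO and 9.19% in wild type. Muc1, another of the 4, fell in wild type (-0.49, limma adjusted p = 0.0268). Krt19 rose more in Mist1KO (interaction 1.62, limma adjusted p = 0.0113). Endothelial markers, the cells in which Icam1 is best known, summed to 754 to 886, 945 to 1034, 1082 to 1240 and 1216 to 1331. After saline, 2 of 7 tested endothelial markers were lower in Mist1KO than in wild type, Pecam1 (-0.68, limma adjusted p = 0.0197) and Kdr (-0.95, limma adjusted p = 0.033), against 5.74% of all. After caerulein, 2 of 7 were likewise lower in Mist1KO than in wild type and 0 higher (median -0.39), against 10.2% of all that were lower. Fibroblast markers summed to 2081 to 2865, 3283 to 4775, 2070 to 3089 and 2726 to 4856, and islet markers to 9787 to 11039, 13226 to 14673, 11191 to 16361 and 13734 to 14612. The part of cell makeup in the changes of Rela, Relb and Nfkbia was not tested.

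The genes whose course was most like that of the brightest Nfkbia probe set were Prr13, Rabif, G3bp2, Tbk1 and Cggbp1. Likeness was the root mean square difference, over the 12 arrays, between log2 values centred on their own mean, among 9473 candidate genes, whose median was 0.511. A gene with the same value on all 12 arrays would score 0.352. The difference was 0.097 for Prr13, 0.152 for Rabif, a Rab exchange factor, 0.166 for G3bp2, a stress granule protein, 0.175 for Tbk1 and 0.177 for Cggbp1, a protein that binds CGG repeats. Prr13 averaged 317 in Mist1KO caerulein, 271 in Mist1KO saline, 185 in wild type caerulein and 278 in wild type saline. Cggbp1 averaged 743, 648, 389 and 658 in the same order. Both were lowest in wild type caerulein. Tbk1, an IkB kinase relative, was the only one of the 5 on the pathway lists.

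Other genes of the pathway were read from lists of 99 genes, of which 86 were annotated and 68 tested, each by its brightest probe set. With caerulein, 16 of 68 rose and 2 fell in Mist1KO (median 0.09), against 24% of all probe sets called (10.5% rose and 13.4% fell). In wild type 11 rose and 5 fell (median -0.15), against 18.9% of all (9.19% rose and 9.74% fell). In Mist1KO caerulein against wild type caerulein 9 were higher and 6 lower (median 0.05), against 20.2% of all (10% higher and 10.2% lower). After saline 3 were higher and 6 lower in Mist1KO (median -0.20), against 12.6% of all (6.84% higher and 5.74% lower). The interaction passed for 3 of 68, against 3.3% of all. The shares called on these lists in either direction thus lay near the background in each comparison. By direction, the shares that rose with caerulein were above the background in both genotypes, and the shares that fell were below it. The lists were chosen with earlier results of these data known, and this split was not tested. Of the 48 changes of these genes named below, 22 were called under every alternative in which they were tested and 26 lost the call under 1 or more, where the adjusted p (limma) reached 0.0533 to 0.178, and the second kind are given as such.

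Of 17 tested receptors and adaptors, 6 rose with caerulein in Mist1KO and 11 did not pass (median 0.15, against 10.5% of all probe sets that rose). In wild type 3 rose and 14 did not pass (median -0.07, against 9.19% of all that rose), and 0 fell in either genotype. Cd14, the co-receptor for bacterial lipopolysaccharide, read 296.2, 349 and 323.1 in Mist1KO caerulein, against 62.6, 99 and 45.3 in Mist1KO saline, and 231.3, 124.9 and 257.3 in wild type caerulein, against 148.3, 141.2 and 163.2 in wild type saline. It rose 4.01-fold in Mist1KO (2.0 ± 0.25, limma adjusted p = 5.4e-05) and not past the threshold in wild type (0.34 ± 0.25, limma adjusted p = 0.362), and the interaction passed (1.66 ± 0.35, limma adjusted p = 0.0206), a call lost without Mist1KO saline replicate 1 (1.63) or 3 (1.46) or Mist1KO caerulein replicate 2 (1.60). Ltbr, the lymphotoxin receptor that feeds the alternative pathway, rose 1.95-fold in Mist1KO. Card10, a scaffold that links receptors to the kinase complex, rose 1.90-fold there. Their wild type rises (1.43-fold and 1.45-fold) lost the call without replicate 1 or 3 of wild type saline or any 1 array of wild type caerulein. Tnfrsf1a, the main receptor for TNF, rose 1.76-fold in Mist1KO (0.81 ± 0.15, limma adjusted p = 0.0011) and 1.63-fold in wild type (0.71 ± 0.15, limma adjusted p = 0.00408).

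Genotype differences among receptors and adaptors were fewer, at 2 of 17 lower in each comparison, against 10.2% of all probe sets after caerulein and 5.74% after saline. Irak1, a kinase of interleukin and Toll-like receptor signalling, read 280.1, 261.8 and 360.7 in Mist1KO caerulein, against 524.4, 687.9 and 595 in wild type caerulein, with no overlap. It was 1.95-fold lower in Mist1KO (-0.96 ± 0.14, limma adjusted p = 0.000421). Tnfrsf1a was lower in Mist1KO after caerulein (-0.44) and after saline (-0.55), and Cd14 was lower after saline (-1.0), and these 3 lost the call under some alternatives. Cd14 lost it without wild type saline replicate 3 or Mist1KO saline replicate 1 or 3.

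Among 8 tested kinases and their partners (medians of -0.20 in Mist1KO and -0.22 in wild type with caerulein), 0 passed with caerulein in Mist1KO (limma, with 2 at an unadjusted p under 0.05), against 24% of all. In wild type 1 fell, Tbk1 (-0.52, with the call lost under some alternatives), against 9.74% of all that fell. The core kinase Ikbkb changed by 0.18 ± 0.15 in Mist1KO and by -0.07 ± 0.15 in wild type with caerulein and did not pass. Tab3, a subunit that joins the activating kinase to ubiquitin chains, was higher in Mist1KO both after caerulein (2.23-fold, limma adjusted p = 0.00317) and after saline (2.27-fold, limma adjusted p = 0.0056). Its arrays read 207, 201.1 and 145.1 in Mist1KO caerulein, against 95.6, 47.5 and 78.3 in wild type caerulein, and 259.6, 163.7 and 184 in Mist1KO saline, against 81.2, 86.4 and 65.2 in wild type saline. After caerulein Tbk1 was 1.62-fold higher in Mist1KO than in wild type (0.70 ± 0.17, limma adjusted p = 0.009). The other tested probe set of Tbk1 had the same sign there and in the wild type fall, and it passed in neither. Tab2, of the same family as Tab3, was 1.61-fold higher and lost the call without replicate 2 or 3 of wild type caerulein or replicate 1 or 2 of Mist1KO caerulein.

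Of 12 other subunits, inhibitors and deubiquitinases, 4 rose and 1 fell with caerulein in Mist1KO, against 10.5% and 13.4% of all. In wild type 3 rose, against 9.19% of all, and the median was -0.03 in both genotypes. Bcl3, an atypical IkB protein that acts in the nucleus as a co-activator, read 211.3, 229.5 and 394.4 in Mist1KO caerulein, against 28.9, 30.4 and 21.8 in Mist1KO saline. The wild type arrays read 55.3, 44.8 and 66 after caerulein, against 101.6, 5.7 and 41.9 after saline. The 3 Mist1KO caerulein arrays were the highest of the 12. Bcl3 rose 6.29-fold in Mist1KO (2.65 ± 0.43, limma adjusted p = 0.000482) and was 3.90-fold higher there than in wild type after caerulein (1.96 ± 0.43, limma adjusted p = 0.00571). Its change in wild type was 0.39 ± 0.43 and its interaction missed the threshold (2.27 ± 0.61, limma adjusted p = 0.0639). The size of its rise in Mist1KO depended on the offset, at 3.27 with an offset of 1 and 1.87 with an offset of 64.

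Rnf11, a partner of the Tnfaip3 product in its ubiquitin-editing complex, read 2223.2, 2189.6 and 1928.1 in Mist1KO caerulein, against 675.5, 674.2 and 674.8 in Mist1KO saline, and 1585.7, 1831.5 and 2518.7 in wild type caerulein, against 729.6, 816.3 and 624.3 in wild type saline. It rose 3.07-fold in Mist1KO (1.62 ± 0.15, limma adjusted p = 5.2e-06) and 2.66-fold in wild type (1.41 ± 0.15, limma adjusted p = 2.54e-05). Nfkbil1, an IkB-like protein, read 61.8, 60.1 and 50 in Mist1KO caerulein, against 79.6, 64.9 and 74.1 in Mist1KO saline, and 132.1, 102.3 and 107.1 in wild type caerulein, against 59.2, 50.9 and 59.9 in wild type saline. It rose 1.75-fold in wild type (0.81 ± 0.19, limma adjusted p = 0.00841), and the interaction was -1.08 ± 0.27 (limma adjusted p = 0.0437), a call lost when any 1 of the 12 arrays was left out (-1.15 to -0.98). After caerulein it was 1.74-fold lower in Mist1KO than in wild type (limma adjusted p = 0.00871). Nfkbib, which encodes IkB-beta, rose 2.14-fold in Mist1KO (1.10 ± 0.34, limma adjusted p = 0.0307), a call lost without Mist1KO saline replicate 1 or Mist1KO caerulein replicate 1 or 2. It rose 2.26-fold in wild type (1.18 ± 0.34, limma adjusted p = 0.0269), where the groups overlapped by 1 array and the call was lost when replicate 1 (0.99) or 3 (0.96) of wild type saline, or replicate 1 (1.01) or 2 (1.16) of wild type caerulein, was left out, and with only the groups compared (1.18). Nkiras1, a small GTPase that binds IkB proteins, fell in Mist1KO with caerulein (-0.75) and was lower there than in wild type after caerulein (-0.68), and both calls were lost under some alternatives.

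Of 12 tested target chemokines, cytokines and adhesion molecules, 1 rose and 0 fell with caerulein in Mist1KO (median 0.18), against 10.5% and 13.4% of all. In wild type 1 rose and 1 fell (median -0.21), against 9.19% and 9.74% of all. Lif, a cytokine of the interleukin family, rose in both. It read 484.5, 690.1 and 85.1 in Mist1KO caerulein, against 53.5, 60.4 and 81.5 in Mist1KO saline, and 761.4, 1716.3 and 1483.9 in wild type caerulein, against 104, 198.4 and 102.2 in wild type saline. Replicate 3 of Mist1KO caerulein lay near the saline arrays. Lif rose 8.58-fold in wild type (3.1 ± 0.54, limma adjusted p = 0.0011) and 4.01-fold in Mist1KO (2.01 ± 0.54, limma adjusted p = 0.0145), where the change was 2.84 without that replicate and the call was lost without Mist1KO caerulein replicate 1 or 2. It was 3.80-fold lower in Mist1KO than in wild type after caerulein (-1.93 ± 0.54, limma adjusted p = 0.0216), by -1.08 without that replicate, and the call was lost without wild type caerulein replicate 2 or 3. The other tested probe set of Lif passed in the same direction in wild type and between genotypes after caerulein. In Mist1KO with caerulein it had the same sign and did not pass.

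Cxcl2, a neutrophil chemokine and close relative of Cxcl1, read 87.1, 65.1 and 114.2 in Mist1KO caerulein, against 34.2, 29.4 and 37.8 in wild type caerulein. It was 2.02-fold higher in Mist1KO (1.01 ± 0.30, limma adjusted p = 0.0289), a call that was lost without any 1 of wild type caerulein replicates 1, 2 and 3 or Mist1KO caerulein replicates 1 and 3. Ccl4, a macrophage chemokine, was lower in Mist1KO than in wild type both after caerulein (-0.50) and after saline (-0.59), and Cxcl12, a homing chemokine, fell in wild type with caerulein (-0.62), all with calls lost under some alternatives. The other tested probe set of Cxcl12 had the same sign in wild type and did not pass. The inducers Tnf and Il1b did not pass in any comparison (limma adjusted p from 0.101 for Il1b after saline). Of the 3 tested chemokine receptors and integrin ligands of Icam1, 1 passed, Itgb2, which was higher in Mist1KO than in wild type after saline (0.83 ± 0.24, limma adjusted p = 0.0394) and lost the call under some alternatives.

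Of 16 other targets, 5 rose and 1 fell with caerulein in Mist1KO (median 0.15), against 10.5% and 13.4% of all. In wild type 4 rose and 3 fell (median -0.31), against 9.19% and 9.74% of all. Ier3, an early stress response gene, read 1133.4, 1385.7 and 520.9 in Mist1KO caerulein, against 122, 106.2 and 90.8 in Mist1KO saline, and 1018.1, 993.2 and 1158 in wild type caerulein, against 113.4, 88.1 and 148.4 in wild type saline. It rose 7.68-fold in Mist1KO (2.94 ± 0.28, limma adjusted p = 4.95e-06) and 8.06-fold in wild type (3.01 ± 0.28, limma adjusted p = 6.05e-06). Gadd45b, a stress gene that restrains kinase signalling, rose 1.90-fold in Mist1KO (0.93 ± 0.23, limma adjusted p = 0.00819) and 3.25-fold in wild type (1.70 ± 0.23, limma adjusted p = 0.000136), and the interaction missed the threshold (-0.77 ± 0.32, limma adjusted p = 0.236). Bcl2l1, a survival gene, rose 3.69-fold in Mist1KO (1.88 ± 0.17, limma adjusted p = 4.03e-06) and 2.16-fold in wild type (1.11 ± 0.17, limma adjusted p = 0.000496), and the interaction missed the threshold (0.77 ± 0.24, limma adjusted p = 0.114). In Mist1KO, of its 2 other tested probe sets, 1 rose and 1 had the opposite sign. It was lower in Mist1KO than in wild type after saline (-0.64), a call that was lost under some alternatives and whose sign was opposite in both other probe sets.

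Lcn2, an iron-carrier protein of the acute phase, read 412.6, 516.9 and 744.8 in Mist1KO caerulein, against 97.2, 82.5 and 51.5 in Mist1KO saline, and 181.9, 202.3 and 201.4 in wild type caerulein, against 85.7, 23.5 and 127.1 in wild type saline. It rose 5.98-fold in Mist1KO (2.58 ± 0.36, limma adjusted p = 0.000143). Its 2.48-fold rise in wild type was lost without replicate 2 of wild type saline or replicate 2 or 3 of wild type caerulein, and its 2.62-fold higher level in Mist1KO than in wild type after caerulein was lost without Mist1KO caerulein replicate 3. Tnfaip8, a TNF-induced gene, read 613, 631.4 and 673.4 in Mist1KO caerulein, against 232.6, 170.5 and 192.1 in Mist1KO saline, and 105.2, 84.9 and 115 in wild type caerulein, against 128.7, 84.1 and 190.1 in wild type saline. The Mist1KO caerulein arrays were the highest 3 of the 12. It rose 3.05-fold in Mist1KO (1.61 ± 0.22, limma adjusted p = 0.000109) and was 5.49-fold higher there than in wild type after caerulein (2.46 ± 0.22, limma adjusted p = 5.99e-06), and the interaction was 1.90 ± 0.31 (limma adjusted p = 0.00495). Saa3, an acute phase protein, read 206.7, 275.4 and 358.6 in Mist1KO caerulein, against 106.3, 271.7 and 94.6 in Mist1KO saline. It read 83.2, 77.5 and 52.8 in wild type caerulein, against 295.4, 67.1 and 261.1 in wild type saline. Saa3 was 3.29-fold higher in Mist1KO than in wild type after caerulein (1.72 ± 0.44, limma adjusted p = 0.0142), a call lost without wild type caerulein replicate 3 or Mist1KO caerulein replicate 3. The Mist1KO caerulein arrays overlapped the saline arrays of both genotypes.

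The falls among these other targets were smaller. Tnfaip2, a TNF-induced gene of endothelium and leukocytes, was 1.83-fold lower in Mist1KO than in wild type after saline (-0.87 ± 0.20, limma adjusted p = 0.0119), and it fell in wild type with caerulein (-0.68). The other tested probe set of Tnfaip2 had the same sign in both comparisons and passed in neither. Between genotypes after saline, 2 of 7 tested endothelial markers passed, Pecam1 (-0.68) and Kdr (-0.95), both lower in Mist1KO. In the same comparison 3 of 22 tested leukocyte markers passed, against 12.6% of all probe sets. Ngp (-0.74, limma adjusted p = 0.00662) and Cd4 (-1.10, limma adjusted p = 0.039) were lower in Mist1KO and Cd3e was higher (2.07, limma adjusted p = 0.00822). The other tested markers of both kinds did not pass, and the part of these cells in the Tnfaip2 difference was not tested. Birc3, an inhibitor of apoptosis, fell in wild type with caerulein (-0.64) and was 2.10-fold higher in Mist1KO than in wild type after it (1.07 ± 0.18, limma adjusted p = 0.00103). Irf1, an interferon-related transcription factor, fell there (-0.62) and was lower in Mist1KO after saline (-0.53). Fth1, the ferritin heavy chain, fell in Mist1KO with caerulein (-0.44). Of these falls, the Tnfaip2 difference after saline was the one that kept its call under every alternative. The fall of Irf1 in wild type was lost only without wild type caerulein replicate 2.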

How the data were processed

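The pancreas RNA of 12 mice was hybridised to 12 Affymetrix arrays, 3 in each of 4 groups, which were set by the genotype and injection in the labels. The authors deposited linear signal intensities for each probe set on each array, scaled to 2% trimmed means of 151.08 to 151.37 as the values show. The sources used here name neither the summarising software nor detection calls, so how far a signal stood over background is unknown, and the number of arrays limits the precision. Per the series' design text the pancreata are biological replicates.

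The 64 control probe sets of 22516 were left out. Before log2, 18.7 was added to each value (the offset, set at the 20th percentile of the table). Probe sets whose mean log2 value was at or below the 30th percentile were left out, which kept 15716. In R 4.3.3, limma 3.58.1 fitted 1 mean per group over the 12 arrays, and its moderated test (eBayes with trend) had 8 residual and 5.75 prior degrees of freedom. Tests were two-sided, with Benjamini-Hochberg adjustment over all probe sets and a threshold of 0.05. The fit was checked on simulated data. The change of Nfkbia probe sets was compared with exact permutation tests. Symbols came from the platform annotation, updated through RefSeq genes of GRCm38.p6, and 0 member symbols changed. Sequences came from RefSeq. Plots were made in Python 3.11.15 (matplotlib 3.10.9).

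All member probe sets are reported in every comparison. Of other pathway genes, the text names, for each list and comparison, up to 3 of the largest rises and up to 3 of the largest falls that passed the threshold with no overlap between the 6 arrays compared, along with Ikbkb, Tnf, Il1b and further changes of the genes so named, added after their values were seen. The members and lists were chosen with earlier results of these data known. Alternatives covered the offset, the filter, quantile normalization, median centring, the groups in the fit, the intensity trend, the replicate number as a block, and leaving out each array. Replicate numbers did not pair the samples: 18 correlations of same-numbered deviations lay between -0.1 and 0.05, with 0 over 0.1.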

Additional observations from a re-analysis of the deposited data

Results flagged for a closer look

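For 1 probe set of each of 4 genes the response to caerulein differed between Mist1KO and wild type by the interaction test in limma. That test compares the change in Mist1KO with the change in wild type. The Nfkbia probe set 1420088_at had an interaction of 1.06 ± 0.16 (adjusted p = 0.0042), from a change of 0.34 in Mist1KO and -0.72 in wild type. The other Nfkbia probe sets, 1449731_s_at (0.88), 1448306_at (0.65) and 1420089_at (0.38), did not pass (limma adjusted p = 0.119, 0.197 and 0.407). Tnfaip8 had 1.90 ± 0.31 (adjusted p = 0.00495), from 1.61 in Mist1KO and -0.29 in wild type. Cd14 had 1.66 ± 0.35 (adjusted p = 0.0206), from 2.0 in Mist1KO and 0.34 in wild type. That difference takes in a lower saline level of Cd14 in Mist1KO (mean 69, against 151 in wild type saline). The saline difference was -1.0, a call lost under some alternatives, and between genotypes after caerulein Cd14 did not pass. Nfkbil1 had -1.08 ± 0.27 (adjusted p = 0.0437), and it rose by 0.81 in wild type. Leaving out single arrays or changing other settings, the calls on the Nfkbia probe set 1420088_at and on Tnfaip8 passed under each of the 20 alternatives run. The call on Cd14 was lost without Mist1KO saline replicate 1 (1.63) or 3 (1.46) or Mist1KO caerulein replicate 2 (1.60), with limma adjusted p up to 0.0558. The call on Nfkbil1 was lost under 14 of 19 alternatives (limma adjusted p up to 0.106), among them leaving out any 1 of the 12 arrays. The part of array quality and cell makeup in these differences was not tested.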

How the results depend on the processing

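With 3 arrays a group and no measure of background, the dim members limit what can be read: the SE of a change was 0.41 for Cxcl1, 0.42 for Relb and 0.57 for Icam1. No called change took the opposite sign under any alternative run. Where a call was lost, the cause was not tested. Rela in both caerulein comparisons, and the brightest Nfkbia probe set in wild type (-0.85 to -0.59), between genotypes after caerulein (0.78 to 0.99) and in the interaction (0.94 to 1.15), passed under every alternative. The median change of all probe sets with caerulein was -0.13 in Mist1KO and -0.14 in wild type, and with median centring it was -0.01 in both.

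Of 11 member probe sets, the count called after saline was 1 with median centring (Rela) and 0 under the other alternatives. In wild type with caerulein the count of 5 (1 higher, 4 lower) became 3 (1 higher, 2 lower) with quantile normalization, with median centring and with only the groups compared, and 3 to 5 without single arrays, 3 where replicate 1 of wild type saline or replicate 3 of wild type caerulein was left out. In Mist1KO with caerulein the count of 3 was 2 to 3 without single arrays. Between genotypes after caerulein the count of 3 became 1 with the replicate number as a block, and 1 to 4 without single arrays, 1 without Mist1KO caerulein replicate 2. The interaction count of 1 was 1 to 2, and 2 without wild type caerulein replicate 1. The samples share only a replicate number, and with the block the rise of 1420088_at in Mist1KO (0.34, adjusted p = 0.0603 with limma) also missed the threshold, as did the differences of 1449731_s_at (0.66, limma adjusted p = 0.0517) and 1448306_at (0.56, limma adjusted p = 0.0569) between genotypes after caerulein.

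The difference of 0.57 between Nfkbia probe sets 1420088_at and 1420089_at was 0.52 with an offset of 64 (exact permutation adjusted p = 0.06), 0.51 with quantile normalization (exact permutation adjusted p = 0.12) and 0.48 to 0.67 without single arrays, where fewer arrangements are possible and 6 of 12 still passed.

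Pathway counts moved by over 1.5 times in some settings. After saline, 9 calls became 3 with no intensity trend, 3 without wild type saline replicate 2, 4 without Mist1KO saline replicate 1 and 2 without Mist1KO saline replicate 3. In wild type with caerulein, 16 became 10 with only the groups compared, 10 without wild type saline replicate 1, 8 without wild type caerulein replicate 2 and 10 without wild type caerulein replicate 3. Between genotypes after caerulein, 15 became 9 without wild type caerulein replicate 2. The interaction count of 3 became 5 without wild type saline replicate 2, and 1 without Mist1KO saline replicate 1 or 3 or Mist1KO caerulein replicate 2. The pathway settings were chosen after seeing the data.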
